A study of Mus musculus with 10 samples.

Results

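Astrocytes answer injury, inflammation and neuronal disease by becoming reactive. Their intermediate filaments thicken, and they raise transcripts of cytokine receptors, adhesion proteins, protease inhibitors and complement. Much of this response runs through cytokine receptors that signal by the gp130 subunit and STAT3, and inflammatory ligands act through NF-kB. In Huntington's disease, in which mutant huntingtin damages the medium spiny neurons of the striatum, filament-rich reactive astrocytes are a known feature of the affected striatum. The 10 genes described here are commonly used to recognise this state: Gfap, Vim, Serpina3n, Cd44, Osmr, S1pr3, Timp1, C3, Steap4 and Amigo2. They were taken by symbol from the deposited expression table, where all 10 had a row among 21230 genes.

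The table held 10 RNA-seq libraries, each made from a small piece of tissue of a BACHD mouse, described in the methods as striatum. Of these mice 5 received DMSO and 5 received SPI-24. BACHD mice are of the FVB/N strain and carry a full-length human mutant huntingtin gene with an expanded glutamine tract as a heterozygous transgene, beside their own Htt. SPI-24 is a small molecule analog of earlier inhibitors of the complex of the elongation factor Spt5 with RNA polymerase II. The paper selected it for lowering mutant Htt mRNA in a striatal cell line, its structure and reactivity, and its relative stability in solution. Mice were about 3 months old at the start, and drug or its vehicle of DMSO and PEG400 was delivered for 8 weeks by an osmotic pump under the skin. All 10 mice carried the transgene, no library came from a wild-type mouse, and no level is therefore compared here with that of an unaffected striatum. The labels call the libraries biological replicates and name neither sex nor sequencing run, whereas the methods describe mice of both sexes and 2 sequencing sites. The split of the libraries by sequencing site is therefore not known here, and sex is given below through Xist and a Y-linked gene.

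The values are normalized counts, reads per gene divided by a size factor for the library. The libraries held 5.478 to 46.92 M reads assigned to genes, recovered from the values, and depth below means these reads. They are not all the reads sequenced. The value that 3 reads would take, used as the limit for a gene without reads, was 1.09 to 10.3 normalized counts. Such limits cover counting error only. The libraries did not hold the same levels of cell type markers. Summed medium spiny neuron markers were 54289 to 171780 in 4 libraries, namely replicates 1 and 4 of DMSO together with replicates 2 and 5 of SPI-24, and 8116 to 12674 in the other 6 libraries. Drd1, the dopamine receptor of the direct pathway, was named after its values were seen. It was at 536.8 to 2525 normalized counts in those 4 libraries and at 0 to 78.82 in the other 6. Marker transcripts of the defining neurons of the labelled tissue were thus at a low level in 6 of 10 libraries. Xist, the transcript of the inactive X chromosome, followed the same line, at 1845 to 7243 normalized counts in those 4 libraries and at 0 to 109.2 in the other 6. Of these 6, 5 had the Y-linked Ddx3y, named after its values were seen, at 745.5 to 1465, while SPI-24 replicate 1 had it at 0.65. In any split by medium spiny neuron markers, the level of these markers and Xist therefore cannot be told apart. Summed choroid plexus markers ran from 666 to 193353 in DMSO and from 1719 to 30436 in SPI-24. Summed thalamic, hypothalamic and midbrain neuron markers ran from 3126 to 40755 in DMSO and from 8837 to 42123 in SPI-24. For cortical and hippocampal neuron markers the sums were 3440 to 12072 and 6614 to 19926. Summed astrocyte markers were far steadier, from 153842 to 207842 normalized counts, and none of the 15 was at 0 in any library.

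**Figure D1:**
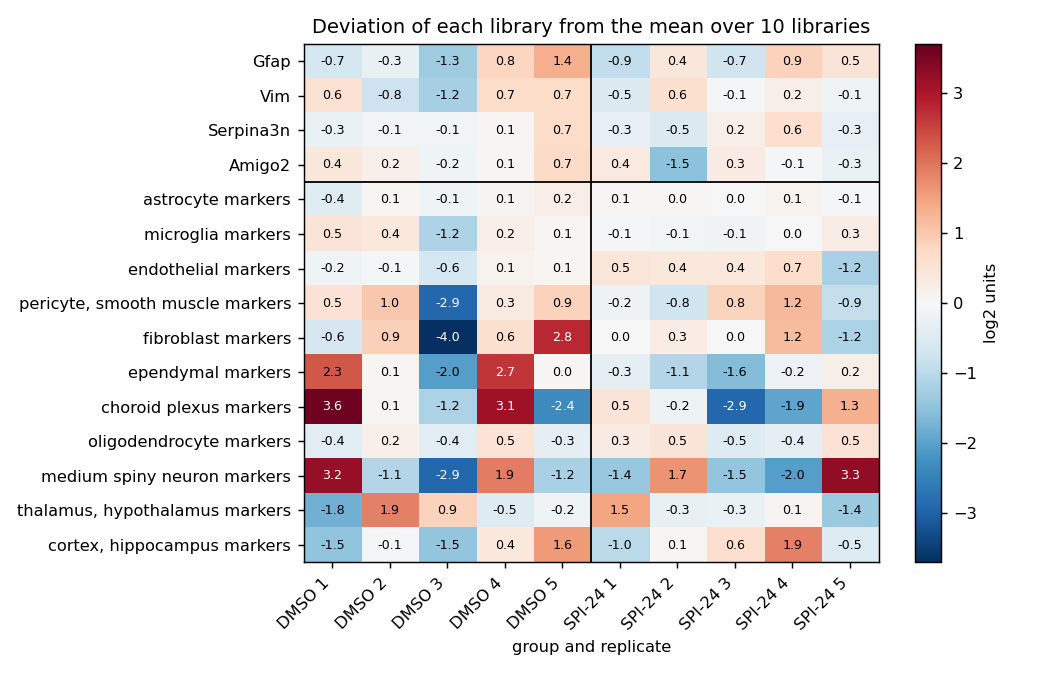
Deviation of each library from the mean over 10 libraries, in log2 units, for the 4 genes with reads in all libraries (rows, top) and for the mean level of each marker list (rows, below), with the 5 DMSO libraries left of the line and the 5 SPI-24 libraries right of it. Astrocyte markers stayed between -0.435 and 0.247, while medium spiny neuron markers ran from -2.898 to 3.273.

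Because STAT3 and NF-kB drive many of these genes, the promoter windows of all 10 were read from RefSeq (GRCm38.p6), 250 bases before to 30 bases after the annotated start, 280 bases each. Motifs were searched on both strands: a STAT motif TTCNNNGAA, an AP-1 motif TGANTCA and an NF-kB motif made of GGG, any 2 bases and TTTCC. The STAT motif stood in 2 of the 10 windows and in 7.83% of 32817 windows of all genes, the AP-1 motif in 1 and in 7.47%, and the NF-kB motif in 3 (Vim, Serpina3n and Steap4) and in 1.54%. No matches overlapped one another. Gfap and Steap4, the genes with the highest and the lowest level per kb below, are shown because they held the STAT motif, and S1pr3 because it had the smallest p of the 10 genes. Capitals mark motif matches: in Gfap TTCCAGGAA with its first base at -2 from the start, in Steap4 TTCCCGGAA with its first base at -116, and in Steap4 also GGAAAACCCC, the NF-kB motif on the opposite strand. The windows lie at chr11:102897171-102897450 (minus strand), chr5:7960222-7960501 (plus strand) and chr13:51408368-51408647 (plus strand).
Gfap: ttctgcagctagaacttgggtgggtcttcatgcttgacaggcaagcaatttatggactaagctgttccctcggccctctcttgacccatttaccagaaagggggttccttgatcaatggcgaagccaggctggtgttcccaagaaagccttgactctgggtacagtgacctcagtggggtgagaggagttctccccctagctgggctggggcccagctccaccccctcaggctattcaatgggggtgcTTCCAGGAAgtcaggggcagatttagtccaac
Steap4: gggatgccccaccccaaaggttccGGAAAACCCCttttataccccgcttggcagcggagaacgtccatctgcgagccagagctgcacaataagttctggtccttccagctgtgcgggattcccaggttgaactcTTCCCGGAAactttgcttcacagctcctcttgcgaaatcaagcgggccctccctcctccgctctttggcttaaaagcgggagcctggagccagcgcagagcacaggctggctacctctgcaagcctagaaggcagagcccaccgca
S1pr3: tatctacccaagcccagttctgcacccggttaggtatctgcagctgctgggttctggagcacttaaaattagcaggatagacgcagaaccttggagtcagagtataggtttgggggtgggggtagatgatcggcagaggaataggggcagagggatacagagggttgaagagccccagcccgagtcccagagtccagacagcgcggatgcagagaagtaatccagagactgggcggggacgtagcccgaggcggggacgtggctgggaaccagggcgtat
None of the 3 motifs was in the S1pr3 window, which says only that these letters are not there. Osmr held the AP-1 match, TGATTCA with its first base at position 4. A match of letters describes the sequence and is no evidence of a bound factor.

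The levels of the 10 genes spread over more than 3 orders of magnitude. On the scale of normalized counts per kb of exon, averaged over 10 libraries, Gfap was at 3105 ± 1842 (SD), Serpina3n at 819.2, Vim at 135.5 and Amigo2 at 100.1. C3 followed at 16.73, Timp1 at 10.58, S1pr3 at 9.149, Cd44 at 4.887, Osmr at 1.589 and Steap4 at 1.067. Gfap stood above Serpina3n, and Serpina3n above Vim, in 10 of 10 libraries, and Amigo2 stood above C3 in 10 of 10. The neighbours Vim and Amigo2 kept their order in 7 libraries, and below C3 no neighbouring pair kept its order in more than 6, except C3 and Timp1 with 7. Only 4 of the 10 genes, Gfap, Vim, Serpina3n and Amigo2, had reads in all 10 libraries.

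Gfap encodes the intermediate filament protein by which astrocytes are usually stained, and lies on chromosome 11 at 102887336 to 102900912 (GRCm38, minus strand). Its normalized counts were 7044, 9150, 4488, 19115 and 28337 in DMSO replicates 1 to 5, and 5932, 14830, 6676, 20009 and 15370 in SPI-24 replicates 1 to 5. The groups overlapped over nearly their whole range, since the 5 SPI-24 libraries all lay within the range of DMSO. The means were 13630 ± 9917 in DMSO and 12560 ± 6064 in SPI-24 (SD, n = 5 each). The log2 fold change of SPI-24 over DMSO was 0.04 (SE 0.46, 95% interval -0.95 to 1.03, limma adjusted p = 0.9991), and its sign turned in both count models, to -0.14 in edgeR and -0.12 in DESeq2. In punches, fewer cells of a type and less RNA per cell cannot be told apart, here or below.

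Vim encodes vimentin, the filament partner of Gfap, which endothelial cells, fibroblasts and ependymal cells also make, and lies on chromosome 2 at 13573927 to 13582826. Vim was at 871.6, 342.2, 252.9, 947.9 and 941.4 normalized counts in DMSO replicates 1 to 5. It was at 405.4, 882.6, 565.7, 685.2 and 531.9 in SPI-24 replicates 1 to 5. DMSO held 3 high and 2 low libraries, and the SPI-24 libraries lay within the range of DMSO, with means of 671.2 ± 343.9 and 614.2 ± 180.1. The log2 fold change was 0.03 (SE 0.39, 95% interval -0.80 to 0.85, limma adjusted p = 0.9991), and -0.14 in edgeR, so no direction is given for Vim.

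Serpina3n encodes a secreted serine protease inhibitor, a widely used transcript marker of reactive astrocytes after injury, and lies on chromosome 12 at 104406729 to 104414329. Its paralogs are close in sequence and multi-mapped reads were discarded, which leaves its level uncertain. Serpina3n was at 1371, 1534, 1535, 1716 and 2590 normalized counts in DMSO replicates 1 to 5, and at 1327, 1129, 1899, 2496 and 1312 in SPI-24. Of the SPI-24 libraries 3 lay just below all of DMSO and the other 2 above its median. The log2 fold change was -0.12 (SE 0.24, 95% interval -0.63 to 0.38, limma adjusted p = 0.9991), the narrowest interval of the 8 genes tested.

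Amigo2 encodes a leucine-rich repeat adhesion protein used as a marker of inflammatory reactive astrocytes, and lies on chromosome 15 at 97244125 to 97247287. It was at 399.6, 338.3, 266.6, 309.1 and 480.4 normalized counts in DMSO replicates 1 to 5. In SPI-24 it was at 379.9, 102.4, 363.3, 279.8 and 248.3. SPI-24 replicate 2 was the lowest of the 10 libraries, and the means were 358.8 ± 83.41 and 274.7 ± 111.1. SPI-24 over DMSO gave a log2 fold change of -0.49 (SE 0.41, 95% interval -1.36 to 0.39, limma adjusted p = 0.9991), and -0.17 without SPI-24 replicate 2. Amigo2 shares 58 bases of exon with Pced1b on the opposite strand, and no source used here states the strand setting of the counting.

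**Figure D2:**
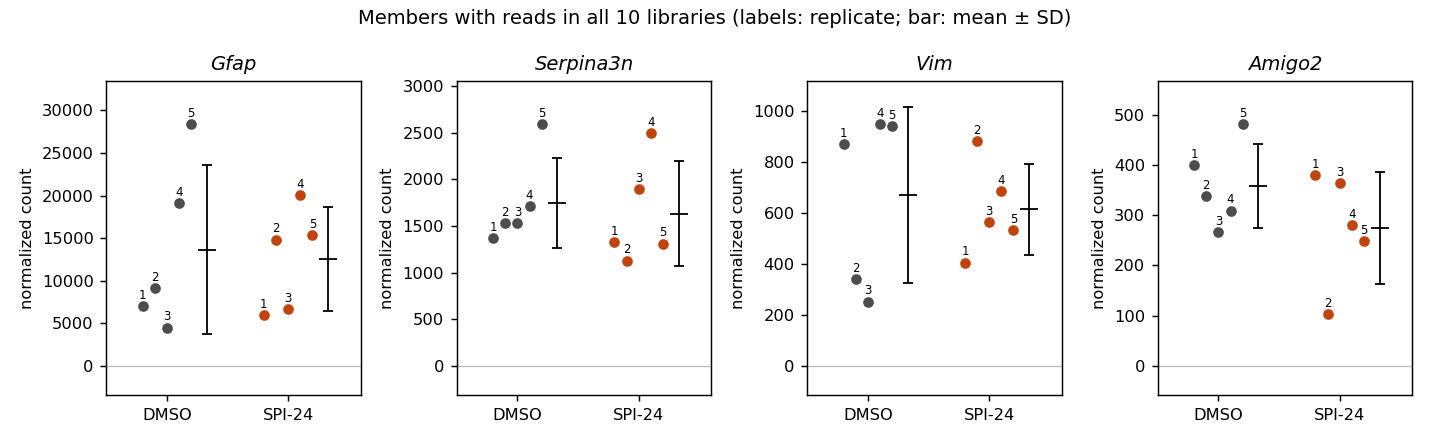
Normalized counts (vertical axis, linear) of Gfap, Serpina3n, Vim and Amigo2 in 5 DMSO and 5 SPI-24 libraries, each point 1 library labelled with its replicate number, and bars the mean ± SD. In all 4 genes the points of the 2 groups overlap, and Gfap spans 4488 to 28337.

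S1pr3 encodes a G-protein-coupled receptor for sphingosine-1-phosphate, made by astrocytes and by vessel wall cells, and lies on chromosome 13 at 51408639 to 51422797. It had no reads in DMSO replicates 2, 3 and 4, and was at 7.13 and 61.04 normalized counts in DMSO replicates 1 and 5. It was at 19.62, 130.04, 48.40, 71.71 and 70.36 in SPI-24 replicates 1 to 5. All 5 SPI-24 libraries had reads and lay above the DMSO median, and 3 of them lay above all of DMSO. The means were 13.63 ± 26.68 and 68.03 ± 40.6, a ratio of 4.99. On the log2(normalized count + 1) scale the difference was 4.08 (SE 1.45, 95% interval 0.99 to 7.17), with an unadjusted p of 0.0132 and an adjusted p of 0.9991 in limma, and hence did not pass over 15871 genes.

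Both the size and the p of S1pr3 depended on the model. The log2 fold change was 2.24 in edgeR (unadjusted p = 0.2072, adjusted p = 0.9999) and 2.29 in DESeq2 (unadjusted p = 0.1316, adjusted p = 0.9999), and 2.66 in limma with a pseudocount of 5. In the 4 libraries rich in medium spiny neuron markers S1pr3 was at 7.13 and 0 in DMSO and at 130.04 and 70.36 in SPI-24. In the other 6 it was at 0, 0 and 61.04 in DMSO and at 19.62, 48.40 and 71.71 in SPI-24, so that the groups overlapped there. Beside S1pr3, summed endothelial markers were 3280 to 3779 in DMSO. They were 5417, 5661, 5143, 5492 and 2926 in SPI-24 replicates 1 to 5, so that only replicate 5 did not lie above all of DMSO. Summed pericyte and smooth muscle markers were 1981 to 3138 in DMSO and 2152 to 4045 in SPI-24. The part of these cells in the S1pr3 result was not tested. S1pr3 shares 45 bases of exon with the noncoding gene Gm32834 on the opposite strand.

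Cd44 encodes the receptor for the matrix polymer hyaluronan and lies on chromosome 2 at 102811141 to 102901665. It had no reads in DMSO replicates 1, 2 and 3, and was at 21.63 and 78.48 normalized counts in DMSO replicates 4 and 5. In SPI-24 it was at 74.55, 0, 47.77, 38.34 and 70.36. Thus 4 of 5 SPI-24 libraries and 2 of 5 DMSO libraries had reads, and the groups shared both their lowest value and nearly their highest. For Cd44 the log2 fold change was 2.50 (SE 1.74, 95% interval -1.21 to 6.21, limma adjusted p = 0.9991), but 1.17 in edgeR, 1.19 in DESeq2 and 1.59 in limma with a pseudocount of 5.

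Osmr encodes the oncostatin M receptor subunit that pairs with gp130, and lies on chromosome 15 at 6813577 to 6874969. Osmr was at 9.51, 13.14, 0, 20.19 and 16.35 normalized counts in DMSO replicates 1 to 5. It was at 63.43, 0, 42.12, 27.69 and 0 in SPI-24. SPI-24 therefore held both the 3 highest libraries and 2 of the 3 without reads, and these 2 were both its libraries rich in medium spiny neuron markers and its 2 shallowest. The 3 libraries without reads of Osmr were the 3 shallowest of the 10, with 5.478 M, 7.381 M and 10.12 M reads. Over all libraries the log2 fold change was 0.11 (SE 1.61, 95% interval -3.34 to 3.55, limma adjusted p = 0.9991), and 1.17 in edgeR and 1.16 in DESeq2. In the 6 libraries poor in medium spiny neuron markers it was 2.78 (limma adjusted p = 0.9452), and in the 4 rich ones -3.90 (adjusted p = 0.1809), a split chosen after the values were seen, in which the SPI-24 values of the 4 were both 0.

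C3 encodes the central complement protein, and lies on chromosome 17 at 57203970 to 57228136. C3 was at 39.24, 78.16, 0, 374.9 and 105.0 normalized counts in DMSO replicates 1 to 5, and at 38.58, 60.87, 57.20, 40.47 and 66.22 in SPI-24. The SPI-24 libraries lay close together, all 5 below the DMSO median, while DMSO replicate 4 stood far above every other library. The means were 119.5 ± 148.2 and 52.67 ± 12.44, a ratio of 0.441. The log2 fold change nonetheless was 0.33 (SE 1.38, 95% interval -2.62 to 3.27, limma adjusted p = 0.9991). Without DMSO replicate 3, the only library without reads of C3, it was -1.02, and in edgeR -1.21, so the sign of C3 was not settled.

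Timp1, an inhibitor of matrix metalloproteinases on chromosome X at 20870166 to 20874735, had a mean of 9.392 normalized counts over all libraries, under the filter of 10, and was not tested. It was at 44.43 in DMSO replicate 3, which rests on 13 reads in the shallowest library, and without reads in the other 4 DMSO libraries. In SPI-24 it was at 18.96 and 30.53 in replicates 1 and 4 and without reads in the other 3. Timp1 lies within Syn1, a gene of synaptic vesicles on the opposite strand, with no shared exon. Steap4, a metalloreductase that handles iron and copper, lies on chromosome 5 at 7960457 to 7982213 and was also not tested. Its 70 reads in DMSO replicate 4, or 33.65 normalized counts, were all the reads it had in the 10 libraries.

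DMSO replicate 4, highest in C3 and alone in Steap4, had choroid plexus and ependymal marker levels 3.122 and 2.659 log2 units above the mean over libraries. DMSO replicate 1 had levels of 3.607 and 2.285, and there C3 was at 39.24 and Steap4 had no reads. The part of these cells in the C3 and Steap4 values was not tested.

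**Figure D3:**
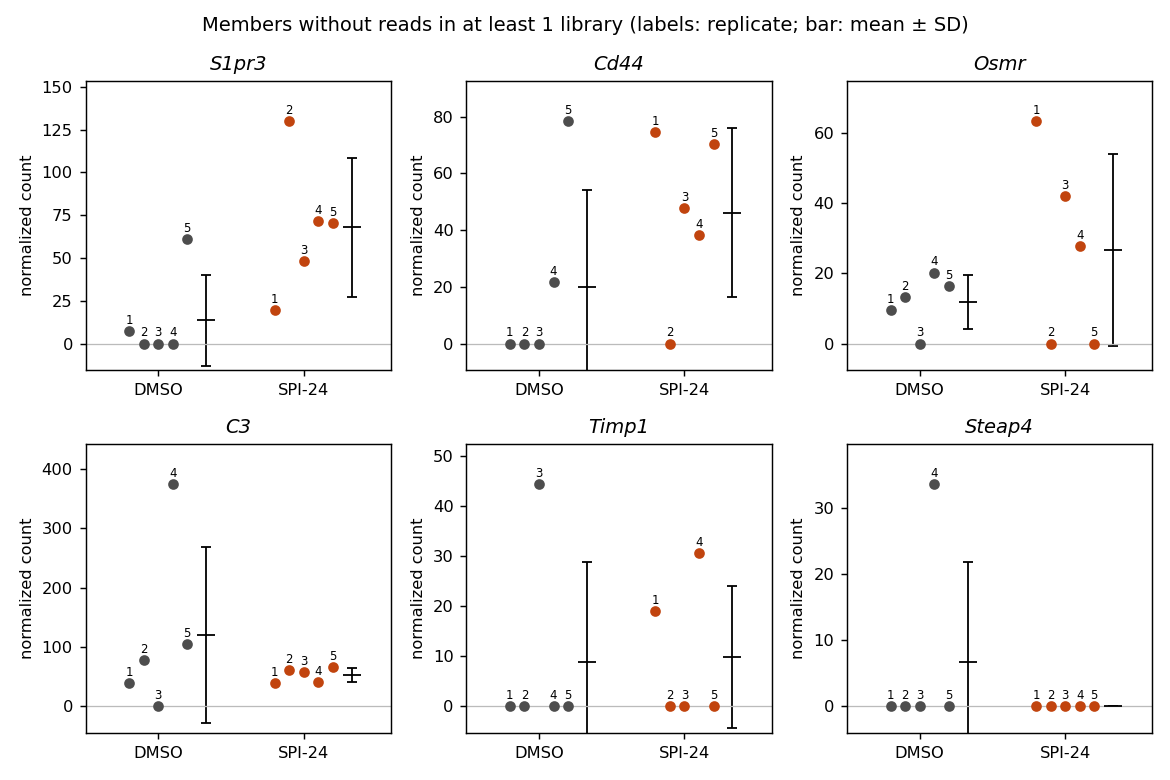
Normalized counts (vertical axis, linear) of the 6 genes without reads in at least 1 library, each point 1 library labelled with its replicate number, and bars the mean ± SD. S1pr3 has reads in 5 of 5 SPI-24 libraries and 2 of 5 DMSO libraries, and Steap4 in DMSO replicate 4 only.

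Missing reads are set beside depth here, and their cause was not tested. Cd44 had no reads in DMSO replicate 2 with 28.22 M reads, but was at 38.34 normalized counts in SPI-24 replicate 4 with 25.79 M. The number of the 10 genes without reads was 3, 4, 5, 2 and 2 in DMSO replicates 1 to 5 and 1, 4, 2, 1 and 3 in SPI-24. The shallowest library of each group had the most, 5 in DMSO and 4 in SPI-24.

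Across the 8 genes tested, 6 were higher and 2 lower in SPI-24 by the sign of the log2 fold change, beside 50.2% of all genes tested that were higher. In edgeR and DESeq2 the tally was 3 higher (Cd44, Osmr and S1pr3) and 5 lower, beside 48.2% and 48.1% of all genes higher. None of the 8 passed an adjusted p under 0.05 in limma, beside 0.0% of all genes tested. One gene, S1pr3, had an unadjusted p under 0.05 and was higher, beside 2.23% of all genes in either direction, 0.958% higher and 1.27% lower. In none did the groups fail to overlap, beside 0.517% of all genes, and 2 genes (S1pr3 and Cd44) were past 2-fold, beside 21.7%. The median log2 fold change of the 8 was 0.08, and that of all 15871 genes 0.00. Over all genes edgeR also called 0, with 367 genes at an unadjusted p under 0.05 against 354 in limma. DESeq2 called 3, none of them among the 10 genes.

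**Figure D4:**
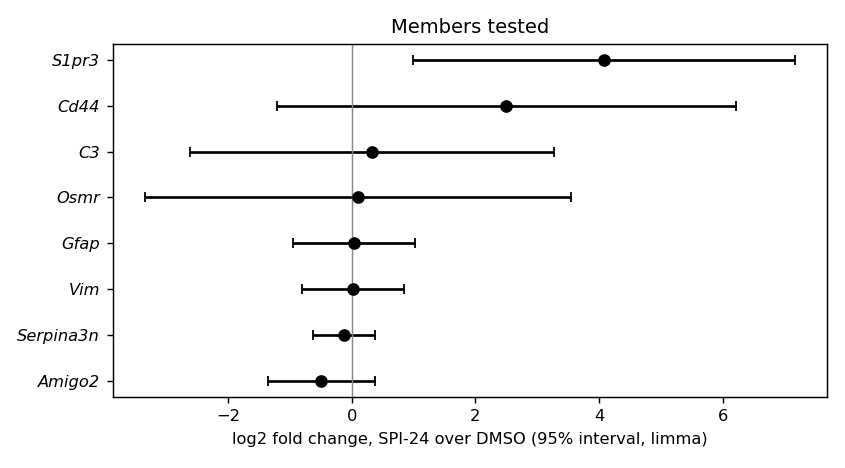
Log2 fold change of SPI-24 over DMSO (horizontal axis) for the 8 genes tested, each point the limma estimate on the log2(normalized count + 1) scale from 5 and 5 libraries, and bars its 95% interval. The interval of S1pr3, from 0.99 to 7.17 and unadjusted for the number of genes, leaves out 0, and those of the other 7 hold it.

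Gfap differed far more from library to library than genes of like abundance. Its coefficient of variation over the 10 libraries was 59.3%, against a median of 20.6% for the 331 genes whose mean lay within 2-fold of its own, of which 93.3% varied less. C3 also varied widely, with 122% against 71.6%, and 93% of its 3009 neighbours in level varied less. C3 was at 374.9 normalized counts in DMSO replicate 4 and at 0 to 105.0 in all other libraries. Vim (40.5% against 31.1%) and Serpina3n (29.5% against 23.7%) lay nearer to their neighbours. Amigo2 (32.4% against 40.4%), Cd44 (100.3% against 111.5%) and Osmr (106.8% against 140.0%) varied less than the median of theirs, and S1pr3 had 105.9% against 101.4%. These are descriptions, since genes of 1 library are not independent.

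**Figure D5:**
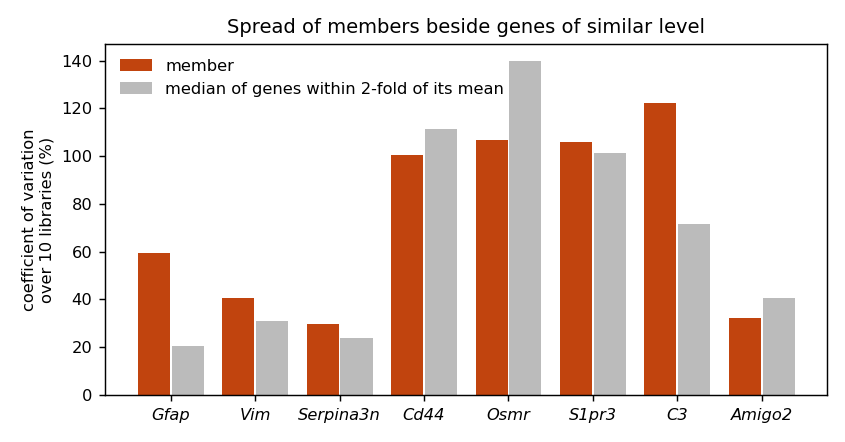
Coefficient of variation over 10 libraries (vertical axis, percent) of each of the 8 genes tested, beside the median of all genes whose mean normalized count lies within 2-fold of that gene's. Gfap (59.3% against 20.6%) and C3 (122% against 71.6%) stand furthest above their neighbours.

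Gfap, with a 6.31-fold range over the libraries, also varied more than each of the 15 astrocyte markers taken singly. Their ranges were 1.51-fold to 3.34-fold with a median of 1.96-fold, and their coefficients of variation 13.1% to 34.6%. Aqp4, the water channel of astrocyte endfeet, had the widest range, from 2042 normalized counts in DMSO replicate 1 to 6824 in DMSO replicate 5, the library where Gfap was highest. This gene was named after its values were seen. Gfap as a percentage of the summed astrocyte markers was 4.579, 5.013, 2.806, 10.44 and 13.63 in DMSO replicates 1 to 5. It was 3.261, 8.101, 3.687, 10.77 and 8.382 in SPI-24. High and low libraries were thus found in both groups, with means of 7.295 ± 4.55 and 6.84 ± 3.246, and an exact two-sided permutation test gave p = 0.8571 (n = 5 each). In DMSO the deepest library had the highest Gfap and the shallowest the lowest, whereas in SPI-24 the 2 deepest libraries, replicates 1 and 3, had the lowest.

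Among 11206 genes with a mean of at least 100, those whose pattern over the 10 libraries was most like that of Gfap, with group means taken out, were Hopx (Pearson r = 0.942), an atypical homeodomain protein, Ctc1 (0.928), a telomere maintenance protein, and Spata2 (0.909), an adaptor of the deubiquitinase CYLD. Hopx ran from 261.6 normalized counts in SPI-24 replicate 1 to 1255 in DMSO replicate 5. Within the 10 genes, 34 of 45 pairs had r above 0, with a median of 0.236. Gfap and Vim had r = 0.704, which was 0.574 without DMSO replicate 3. Osmr and Amigo2 had 0.754, and 0.744 without DMSO replicate 3. Timp1 and C3 had -0.718, but -0.397 without DMSO replicate 3. Both pairs held libraries without reads. The points share library, depth and tissue content, and no test was made.

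The 4 genes with reads in all libraries were also set against 11 marker lists over the 10 libraries, 44 relations in all, of which 0 passed Benjamini-Hochberg adjustment. The highest were with cortical and hippocampal neuron markers, for Serpina3n (r = 0.792, permutation p = 0.00719; rho = 0.661, permutation p = 0.0437; adjusted p = 0.1681 and 0.4472) and for Gfap (r = 0.768, permutation p = 0.01146; rho = 0.709, permutation p = 0.02713; adjusted p = 0.1681 and 0.3979). Without the 2 libraries farthest from the median marker level, r was 0.402 and 0.575. Gfap against fibroblast markers gave r = 0.720 (permutation p = 0.01035; rho = 0.733, permutation p = 0.02056; adjusted p = 0.1681 and 0.3979), but 0.309 without DMSO replicates 3 and 5, so this relation rests on those libraries. The fibroblast marker level was -3.964 log2 units from the mean over libraries in DMSO replicate 3, where Gfap was lowest, and 2.793 in DMSO replicate 5, where Gfap was highest.

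Other genes of the reactive state were read from the same fit. Of 28 tested from a list of 35, 16 were higher and 12 lower, with 0 called and a median log2 fold change of 0.24. The smallest p belonged to Emp1, an epithelial membrane protein, with DMSO at 109.8 ± 46.94 normalized counts and SPI-24 at 24.2 ± 26.54 (log2 fold change -2.96, SE 1.22, unadjusted p = 0.02841, limma adjusted p = 0.9991). Ednrb, the endothelin receptor of astrocytes, was at 1110 ± 324.7 and 1391 ± 219.4, and the proteoglycan Srgn at 68.47 ± 47.66 and 148.9 ± 82.13, neither past the threshold. Of the 15 astrocyte markers of the resting state 13 were higher and 2 lower, with 0 called and a median of 0.07. Slc1a3, a glutamate transporter, had the smallest p among them and was lower, at 10710 ± 2340 in DMSO and 8837 ± 1133 in SPI-24 (unadjusted p = 0.1935, limma adjusted p = 0.9991). Gjb6 had the next smallest p and was higher, at 2953 ± 614 in DMSO and 3593 ± 833.6 in SPI-24 (unadjusted p = 0.2009, limma adjusted p = 0.9991).

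Upstream of the response, 17 genes of the gp130 and STAT3 route were tested, of which 8 were higher and 9 lower, with 0 called. Cntfr, the receptor subunit for ciliary neurotrophic factor, had DMSO libraries at 1231 ± 475.3 and SPI-24 libraries at 1967 ± 241 (log2 fold change 0.78, SE 0.27, unadjusted p = 0.01082, limma adjusted p = 0.9991). Il11ra1, the interleukin 11 receptor, was at 607.9 ± 123.1 and 409.9 ± 125.3 (unadjusted p = 0.06054, limma adjusted p = 0.9991). Of 12 ligands, receptors and factors of the inflammatory route 6 were higher and 6 lower, with 0 called. Il1b, the cytokine interleukin 1 beta, had no reads in DMSO. In SPI-24 it had reads in only 3 of 5 libraries, with a mean of 25.95 ± 38.85 (limma adjusted p = 0.9991). Its receptor Il1r1 was at 54.07 ± 46.18 in DMSO and 116 ± 89.99 in SPI-24.

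Among partners of the 10 genes, 7 of 10 other filament genes were higher and 3 lower, with the smallest p in the neuronal filament gene Nefl, at 6746 ± 2577 in DMSO and 9241 ± 3015 in SPI-24. Of 15 matrix proteins and proteases 4 were higher and 11 lower, with 0 called and a median log2 fold change of -0.44. These included Timp2, the abundant relative of Timp1, at 3606 ± 872.3 and 2488 ± 409.2 (log2 fold change -0.52, SE 0.19, unadjusted p = 0.01455, limma adjusted p = 0.9991). Mmp2, a metalloproteinase, was at 89.24 ± 23.73 and 24.17 ± 37.6 (log2 fold change -4.14, SE 1.497, unadjusted p = 0.0148, limma adjusted p = 0.9991). Mmp2 had reads in 5 DMSO and 2 SPI-24 libraries, and its fold change therefore depends on the pseudocount and on libraries without reads. Of 14 complement genes 7 were higher and 7 lower. Cr1l, with the smallest p among them, was at 339.7 ± 92.56 in DMSO and 457.3 ± 152.5 in SPI-24. C2, with the next smallest, was at 176.5 ± 114.2 and 90.98 ± 45.39. Of 9 genes of sphingosine-1-phosphate signalling beside S1pr3, 5 were higher and 4 lower. Sgpp1 had the smallest p and was lower, with a DMSO mean of 623.1 ± 75.12 and a SPI-24 mean of 569.7 ± 425. The receptor S1pr2 came next and was higher, at 20.73 ± 19.89 and 45.69 ± 32.9, with reads in 3 DMSO and 4 SPI-24 libraries. The receptors S1pr1 and S1pr5 were named after their values were seen. The more abundant receptor S1pr1 was lower, at 2812 ± 482.8 and 2608 ± 416.1. S1pr5 hardly differed, at 545.2 ± 191 and 545.7 ± 139.7. None of these passed the adjusted threshold in limma.

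Markers of other cells of the punch that make members of the group moved as follows, with 0 called in any list. Of 16 microglial markers 7 were higher and 9 lower, with the protease Ctss at 3988 ± 898.6 in DMSO and 2635 ± 512.1 in SPI-24 (unadjusted p = 0.006356, limma adjusted p = 0.9991). Of 10 endothelial markers 7 were higher and 3 lower, with the transporter Slco1a4 at 241.8 ± 83.84 and 484.2 ± 161.7 (unadjusted p = 0.01878, limma adjusted p = 0.9991). Of 16 ependymal markers 3 were higher and 13 lower, with a median of -0.96, and of 14 choroid plexus markers 1 was higher and 13 lower, with a median of -1.21. Summed choroid plexus markers were 193353 and 101250 in DMSO replicates 1 and 4. They were 666 to 14793 in the other DMSO libraries and 1719 to 30436 in SPI-24. DMSO replicates 1 and 4 also had the highest ependymal marker levels, 2.285 and 2.659 log2 units above the mean over libraries. How far these libraries set the tallies was not tested. The part of these other cells in the values of the 10 genes was not tested either.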

How the data were processed

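RNA of punches described as striatal, from 10 BACHD mice (5 DMSO and 5 SPI-24), was sequenced from stranded mRNA libraries. Group and replicate number are as the labels state them. The authors trimmed reads with cutadapt, aligned them by STAR against GRCm38 and its Ensembl genes, discarded reads under 30 bp and multi-mapped reads, and counted them per gene with HTSeq; no source used here states versions or the strand setting. The deposited signal of each gene and library is the count divided by a DESeq2 size factor. The authors' log2 fold change and p-value columns, their mean and their thresholds hold their own comparison and were not used.

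Low values step by the worth of a single read, so reads were recovered: 100.0% of 154521 values above 0 were whole within 0.1, including 13122 of 13122 values of up to 20 reads. The main test was limma 3.58.1 with trend in R 4.3.3 on log2(normalized count + 1), a scale on which the fold change of a low gene depends on the pseudocount and on libraries without reads, for 15871 genes with a mean of at least 10, Benjamini-Hochberg adjusted, called under 0.05. The design was fixed for normalized values; edgeR 4.0.16 called 0 genes and DESeq2 1.42.0 called 3 on the recovered reads. The median SE of a log2 fold change was 0.47. Sums of markers are over each list, and list levels are means of log2 deviations. GENCODE M21 (GRCm38) gave coordinates and exon lengths, and 99.9% of identifiers matched.

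The 10 genes and all lists were chosen with earlier results of these data known. Named were the 10 genes, up to 4 genes of smallest p per list and the 3 most like Gfap. Drd1, Ddx3y, Aqp4, S1pr1 and S1pr5 were named after their values were seen. Alternatives were other pseudocounts, filters and tools, covariates, a replicate block, leaving out each library, and subsets of libraries chosen after the data were seen.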

Additional observations from a re-analysis of the deposited data

Results flagged for a closer look

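Of 20 groups of 5 libraries (10 genes in 2 groups), 4 held a library far from the other 4 on the log2 scale by Dixon's ratio with a critical value of 0.71, which chance passes in about 1 of 20 groups of values without ties. That rate does not hold for genes with libraries piled at 0, and the number of such groups is therefore not read against it. Cd44 had 0 normalized counts in SPI-24 replicate 2, with 38.34 to 74.55 in the other 4 SPI-24 libraries (ratio 0.849). Osmr had 0 in DMSO replicate 3, with 9.51 to 20.19 in the other DMSO libraries (ratio 0.77). With 4 libraries at 0 the ratio is 1.0 by construction, as for the next pair of genes. Timp1 had 44.43 in DMSO replicate 3 and 0 in the other 4. Steap4 had 33.65 in DMSO replicate 4 and 0 in the other 4. DMSO replicate 3 and SPI-24 replicate 2 were the shallowest libraries of their groups, with 5.478 M and 7.381 M reads, where 3 reads are worth 10.3 and 8.3 normalized counts; 9.51, the lowest value above 0 of Osmr in DMSO, is below the limit of DMSO replicate 3.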

How the results depend on the processing

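None of the 8 genes passed the adjusted threshold under any alternative (196 values, adjusted p 0.1809 to 1), and 155 of these kept the sign of the main value. The other 41, all of Gfap, Vim, Serpina3n, Osmr and C3, took the opposite sign. In edgeR with TMM, edgeR with DESeq2 size factors and DESeq2, log2 fold changes were -0.14, -0.12 and -0.12 for Gfap, -0.14, -0.14 and -0.13 for Vim, and -1.21, -1.19 and -1.19 for C3, while S1pr3 was at 2.24, 2.28 and 2.29 and Cd44 at 1.17, 1.19 and 1.19. With the astrocyte level as a covariate they were -0.17 for Gfap, -0.0027 for Vim, -0.19 for Osmr and -0.0082 for C3, and with Xist as a covariate -0.067 for Vim. A pseudocount of 0.5 gave -0.062 for Osmr and a pseudocount of 5 gave -0.082 for C3, 2.66 for S1pr3 and 1.59 for Cd44. In the 7 libraries above 11 M reads (chosen after seeing the data) Gfap was at -0.56, Vim at -0.41, Serpina3n at 0.079 and C3 at -1.22, and S1pr3 at 3.15, with an adjusted p of 0.8145 in limma. In the 4 libraries rich in medium spiny neuron markers, also chosen after seeing the data, Vim was at -0.41, Osmr at -3.90 and C3 at -0.93, and in the other 6 Gfap was at -0.18 and Serpina3n at 0.015. Leaving out each library in turn gave -0.28 to 0.38 for Gfap, -0.27 to 0.20 for Vim, -0.29 to 0.027 for Serpina3n, -0.68 to 0.92 for Osmr, -1.02 to 1.12 for C3, 1.96 to 3.66 for Cd44, -0.64 to -0.17 for Amigo2 and 3.63 to 5.12 for S1pr3 (unadjusted p 0.002504 to 0.03453, limma adjusted p 0.94 to 1). The cause of these turns was not tested. Over all genes, DESeq2 called 3 where limma and edgeR called 0. Genes higher at an unadjusted p under 0.05 numbered 152, with 234 under the medium spiny neuron covariate, 348 in the 7 libraries and 116 to 268 with a library left out; genes lower numbered 202, with 132 under a minimum of 10 in each library, 540 in the 7 libraries, 828 in the 4, 134 in the 6, and 149 to 333 with a library left out. DMSO replicate 3 (230 higher and 333 lower without it) and SPI-24 replicate 5 (268 higher) moved these counts by over 1.5 times.

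The replicate numbers do not pair the libraries (correlations of same-numbered deviations -0.128 to 0.125). With replicate number as a block 0 genes were called, 155 were higher and 161 lower at an unadjusted p under 0.05, and S1pr3 was at 4.08 (unadjusted limma p = 0.02807, adjusted p = 0.9996); replicate 3 alone correlated best with its own number. The limit for genes without reads, up to 10.3 normalized counts, bounds what can be said of Osmr, Timp1 and Steap4.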
